A study of Homo sapiens with 6 samples.

Results

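Complement is a cascade of blood and tissue proteins that marks and lyses targets, and 9 of its genes were described in SUM159 cells that overexpress POGK and in control SUM159 cells. They were taken by gene symbol from the deposited count table of 18398 genes. All 9 had a row each, and all 9 passed the filter on low counts that left 15889 genes for testing. CFI passed it through its control libraries alone. The genes were C1R, C1S, SERPING1, C3, CFB, CFI, CD46, CD55 and CD59.

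SUM159 is an established cell line from a human breast cancer without estrogen receptor, progesterone receptor or HER2 amplification, and it resembles mesenchymal cells. The POGK group (3 libraries) came from SUM159 cells stably overexpressing POGK, a protein with a KRAB domain that derives from a pogo-like DNA transposon, and its labels name the lentiviral vector pLVX. The control group (3 libraries) came from SUM159 cells labelled with pLVX alone. All cells grew in the same medium with serum, insulin and hydrocortisone. The stated purpose of the comparison was to find genes that POGK regulates. The labels do not say whether the POGK cells were a clone or a pool, nor that replicates were separate cultures. The spread behind each p-value is therefore that of these libraries and may be technical.

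Complement proteins are made mainly by the liver, but epithelial, mesenchymal and tumour cells also make several of them. In the classical pathway the proteases C1r and C1s, bound to C1q, cut C4 and C2, and the resulting enzyme cuts C3, the protein on which all pathways meet. In the alternative pathway factor B joins deposited C3b to form another enzyme that cuts C3. Cells restrain the cascade with soluble inhibitors and with membrane proteins that dismantle these enzymes or block the final pore.

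The cell line was checked against its markers in CPM, which are counts scaled to a common library total. TMM, a method that equalises libraries on the bulk of their genes, adjusted those totals. VIM, the gene of the mesenchymal filament vimentin, averaged 3340 CPM in POGK cells and 5960 CPM in control cells. CD44, an adhesion receptor typical of such lines, averaged 692 CPM in POGK cells and 831 CPM in control cells. KRT18, a keratin gene on the same marker list, averaged 204 CPM in POGK cells and 125 CPM in control cells. ERBB2, the HER2 gene, averaged 85.6 CPM in POGK cells and 72.9 CPM in control cells. Thus VIM and CD44 were lower in POGK cells and KRT18 and ERBB2 higher (edgeR quasi-likelihood test, adjusted p of at most 0.0246). The raw counts of CD44 were close, at 25127, 24869 and 20343 in POGK libraries and 22586, 24187 and 24088 in control libraries. Its small difference (log2 fold change -0.264) therefore leans on the scaling. EPCAM had at most 9 counts in a POGK library and at most 10 in a control library. The estrogen receptor gene ESR1 had at most 7 counts in a POGK library and at most 8 in a control library. The progesterone receptor gene PGR had no row in the count table. POGK itself had 26565, 28258 and 23128 counts in the POGK libraries, against 1555, 2423 and 1987 in the control libraries. Reads of the introduced copy cannot be told apart from those of the cells' own gene. Library totals ran from 27645789 to 33689230 counts.

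Start regions from RefSeq (build GRCh38.p14) were matched by symbol for 6 of the 9 genes, CFB, CFI, C1R, CD46, CD55 and CD59. Those of CFB, CFI and C1R are shown because these 3 genes had the largest differences among the 6. Each run covers 250 bases before and 50 bases after a start, 5′ to 3′ on the gene's strand, and capitals mark matches to the motifs listed after them. The windows are chr6:31945845-31946144 (plus strand) for CFB, chr4:109801950-109802249 (minus strand) for CFI, and chr12:7092396-7092695 and chr12:7091844-7092143 (minus strand) for 2 starts of C1R.
CFB: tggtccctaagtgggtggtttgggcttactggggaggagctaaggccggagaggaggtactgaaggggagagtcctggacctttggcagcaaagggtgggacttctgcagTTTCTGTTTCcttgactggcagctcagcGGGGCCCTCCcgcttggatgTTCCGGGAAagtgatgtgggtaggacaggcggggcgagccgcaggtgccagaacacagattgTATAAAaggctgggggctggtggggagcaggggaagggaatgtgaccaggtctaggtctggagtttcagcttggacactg
CFI: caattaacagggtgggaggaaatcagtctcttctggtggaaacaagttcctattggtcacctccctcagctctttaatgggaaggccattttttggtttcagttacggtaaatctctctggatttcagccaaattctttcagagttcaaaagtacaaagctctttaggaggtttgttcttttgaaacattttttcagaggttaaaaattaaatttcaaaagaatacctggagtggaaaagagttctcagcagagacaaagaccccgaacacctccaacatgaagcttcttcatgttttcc
C1R, first start: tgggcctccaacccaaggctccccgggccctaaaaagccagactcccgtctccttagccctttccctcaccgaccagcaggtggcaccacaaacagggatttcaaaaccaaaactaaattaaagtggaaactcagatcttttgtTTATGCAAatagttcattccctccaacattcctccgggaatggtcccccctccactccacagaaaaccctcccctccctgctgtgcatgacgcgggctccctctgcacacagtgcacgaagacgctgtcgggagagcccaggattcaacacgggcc
C1R, second start: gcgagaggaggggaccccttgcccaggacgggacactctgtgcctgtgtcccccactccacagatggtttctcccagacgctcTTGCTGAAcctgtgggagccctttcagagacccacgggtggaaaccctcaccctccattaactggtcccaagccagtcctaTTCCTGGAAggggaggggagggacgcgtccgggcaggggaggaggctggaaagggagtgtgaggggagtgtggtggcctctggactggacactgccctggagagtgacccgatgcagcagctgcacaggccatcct

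Both strands were searched for motifs of factors known from inflammation. These were the interferon motif (TTTC, any 2 bases, TTTC), the STAT motif TTCNNNGAA, the C/EBP motif TTGCNNAA, the AP-1 motif TGANTCA and the NF-kB motif, together with the TATA box TATAAA. CFB held the interferon motif at positions -140 to -131 from its start, the NF-kB motif at -112 to -103, the STAT motif at -92 to -84 and the TATA box at -30 to -25. None of these matches overlapped another. Of all 35116 such windows, 3.57% held the interferon motif, 11.3% the NF-kB motif, 7.66% the STAT motif and 11.5% the TATA box. The first C1R window held the C/EBP motif at -106 to -99, and the second held it at -167 to -160 and the STAT motif at -86 to -78. The C/EBP motif occurred in 10.5% of all windows. No match was found in the windows of CFI, CD46 and CD55, whereas the windows of CD59 held STAT, C/EBP and AP-1 motifs. The AP-1 motif occurred in 7.71% of all windows. CD59 had more windows than any other matched gene, so shares per window understate how often such a gene holds a match. Its STAT matches were the same letters seen in overlapping windows. A match is a description of letters and does not show that a factor binds.

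All 9 complement genes were lower in POGK cells than in control cells. CFI entered the test only through its control libraries, so its direction adds little to this count. The genes of the secreted proteins C1r, C1s, C1 inhibitor, C3, factor B and factor I were between 2.30-fold (CFB) and 4.89-fold (CFI) lower. The genes of the membrane regulators CD46, CD55 and CD59 were 1.52-fold, 1.27-fold and 1.22-fold lower. Each difference passed edgeR's quasi-likelihood test at an adjusted p below 0.05, although the call of CD55 was lost with scaling by library size alone, and that of CD59 with that scaling and without some single libraries. Of all genes tested, 33.3% were lower by the same rule and 32.7% higher, and 12.7% were at least 2-fold lower, as 6 of the 9 genes were. The median log2 fold change of POGK over control was -1.45 over the 9 genes, against 0.0025 over all genes tested. On the CPM scale each POGK library lay below each control library for all 9 genes, as it did for 36.8% of all tested genes, while 73.7% were separate in either direction. By the test, 66% of all genes were called in either direction, so such calls were common. In bulk samples such as these, fewer cells that express a gene and less RNA per cell cannot be told apart.

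**Figure D1:**
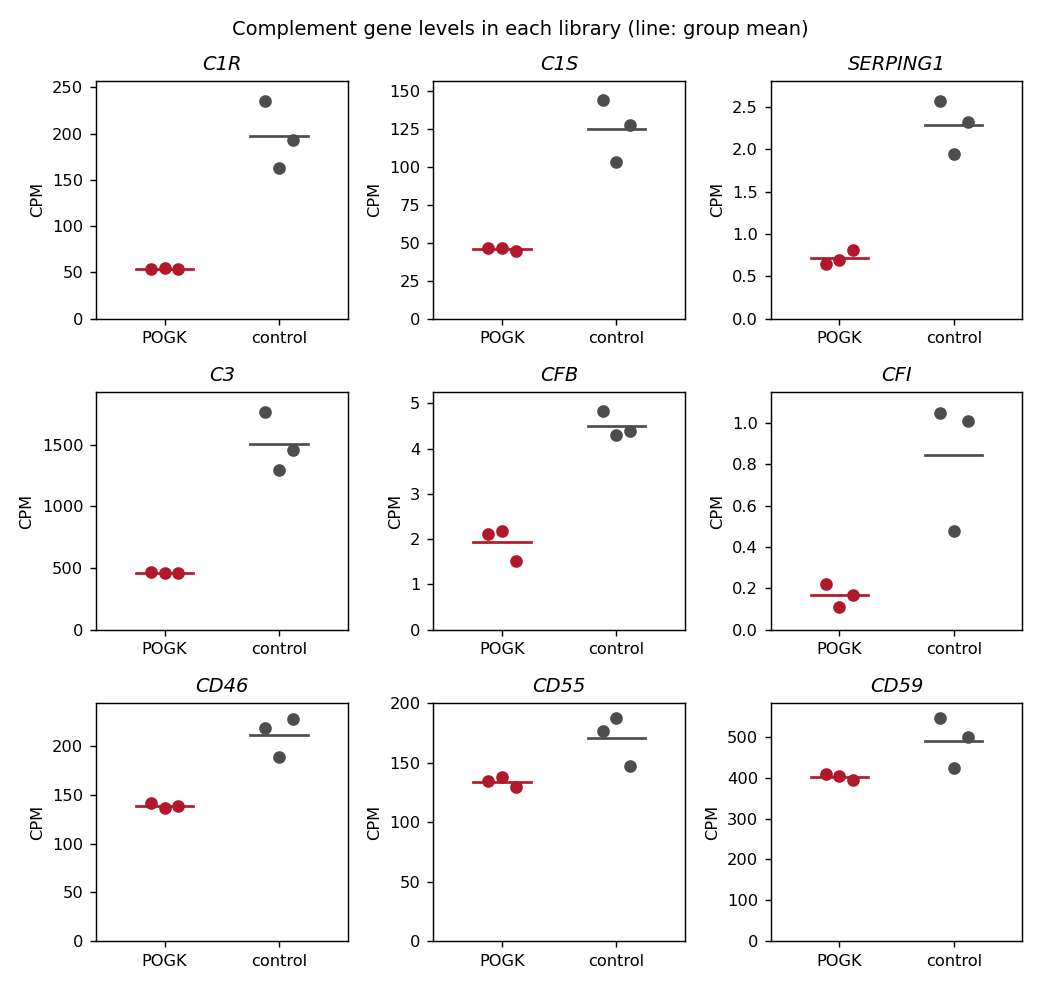
TMM-scaled CPM of each complement gene in the 3 POGK and 3 control libraries, with 1 point per library, a line at each group mean and every axis from 0. The POGK libraries lay below all control libraries for each gene, with C3 at 458 to 470.6 CPM in POGK cells and 1298 to 1770 CPM in control cells.

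C1R and C1S encode the paired proteases that start the classical pathway and lie close together on chromosome 12 (hg38; C1R at 7080214 to 7092540 on the minus strand, C1S at 6988259 to 7071032 on the plus strand). C1R had 1930, 1988 and 1587 counts in POGK libraries, against 5849, 5089 and 5741 in control libraries. On the CPM scale it stood at 53.95, 54.95 and 53.54 in POGK cells and at 235.4, 162.4 and 193.4 in control cells. The groups were far apart, and the POGK libraries hardly differed among themselves while control replicate 1 was high and control replicate 2 low. C1R had a log2 fold change of -1.86 (standard error 0.124; edgeR adjusted p = 7.89e-06).

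C1S had 1653, 1675 and 1322 counts in POGK libraries, against 3578, 3227 and 3782 in control libraries. Its CPM were 46.2, 46.3 and 44.6 in POGK cells and 144, 103 and 127.4 in control cells, in the same order of the control libraries as for C1R. C1S had a log2 fold change of -1.45 (standard error 0.114; edgeR adjusted p = 1.54e-05). Thus both protease genes were lower, C1R by 3.64-fold and C1S by 2.73-fold. The ratio of C1R to C1S counts within a library, which does not depend on scaling, was 1.17, 1.19 and 1.20 in POGK libraries and 1.64, 1.58 and 1.52 in control libraries. It did not overlap between groups (2-sided exact permutation p = 0.1, the smallest possible with 3 against 3 libraries; 0.15 after Benjamini-Hochberg adjustment over 9 ratios).

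Exons of C1R share 672 bases with C1RL, a neighbouring gene on the same strand that encodes a C1r-like protease. C1RL was also lower, with 42.7 ± 0.825 CPM in POGK cells and 89.3 ± 10.5 CPM in control cells (SD, n = 3 each). With the counts of C1RL added to those of C1R, an alternative chosen after seeing the data, the log2 fold change of C1R was -1.56. Reads in the shared bases may have been counted for neither gene, so the sum does not measure the effect of the overlap. C1S shares 229 exon bases with another annotated gene on its strand that was not analysed here.

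SERPING1 encodes C1 inhibitor, the serpin that inactivates C1r and C1s (chromosome 11, 57597387 to 57619171, plus strand). It was a low-count gene, with 23, 25 and 24 counts in POGK libraries and 64, 61 and 69 in control libraries. Its CPM averaged 0.715 ± 0.0858 in POGK cells and 2.28 ± 0.317 in control cells (SD, n = 3 each). The groups did not overlap, and SERPING1 had a log2 fold change of -1.67 (standard error 0.206; edgeR adjusted p = 0.000141). The inhibitor gene was therefore lower by 3.19-fold, a size between those of C1R and C1S.

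C3 encodes the central complement protein (chromosome 19, 6677704 to 6730562, minus strand). It was the member with the most counts, with 16837, 16569 and 13626 in POGK libraries against 43971, 40674 and 43290 in control libraries. In CPM these were 470.6, 458 and 459.7 in POGK cells and 1770, 1298 and 1458 in control cells. By mean CPM C3 ranked 243rd of the 15889 tested genes in POGK cells and 73rd in control cells. C3 had a log2 fold change of -1.71 (standard error 0.116; edgeR adjusted p = 8.5e-06), a 3.26-fold lower level. C3 made up 37.4%, 36.9% and 37.6% of the summed counts of the 9 genes in POGK libraries and 57.1%, 54.7% and 54.8% in control libraries. The lncRNA AC008760.2 on the same strand shares 1357 exon bases with C3 but had only 1575 counts over the 6 libraries. Adding them left the log2 fold change of C3 at -1.70. How reads in the shared bases were counted is not known, so this sum does not measure the effect of the overlap. AC008760.2 was itself lower in POGK cells, with a log2 fold change of -1.31 (edgeR adjusted p = 0.00103).

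C3 moved nearly in step with C1R. The C3 to C1R count ratio was 8.72, 8.34 and 8.59 in POGK libraries and 7.52, 7.99 and 7.54 in control libraries, a difference of 0.15 on the log2 scale. The groups did not overlap in this ratio (2-sided exact permutation p = 0.1, the smallest possible, or 0.15 adjusted over the 9 ratios), but the difference was small beside the changes of -1.71 and -1.86 in the single genes.

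CFB encodes factor B, which supplies the protease of the alternative pathway enzyme (chromosome 6, 31945650 to 31952086, plus strand; its start region held interferon, NF-kB and STAT motifs). Its counts were 76, 79 and 45 in POGK libraries and 120, 135 and 130 in control libraries. The CPM values were 2.124, 2.184 and 1.518 in POGK cells and 4.83, 4.309 and 4.379 in control cells. POGK replicate 3 was the lowest of the 6 and the groups were separate. CFB had a log2 fold change of -1.20 (standard error 0.173; edgeR adjusted p = 0.000319). A read-through transcript gene annotated over CFB shares 2249 exon bases with it and was not analysed here. The C3 to CFB count ratio overlapped between groups, at 210 to 303 in POGK libraries and 301 to 366 in control libraries.

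CFI encodes factor I, a protease that cuts C3b and C4b into inactive forms with the help of cofactors such as CD46 (chromosome 4, 109731008 to 109802150, minus strand). It had the fewest counts of the 9 genes, with 8, 4 and 5 in POGK libraries and 26, 15 and 30 in control libraries. Its POGK counts alone would not have passed the filter, so a call of higher was hardly open to it. The summed counts were 17 in POGK libraries (95% exact Poisson interval 9.9 to 27.2) and 71 in control libraries (55.5 to 89.6), intervals that cover counting error only. Its log2 fold change of -2.29 was the largest of the 9 in size but also the least precise, with a standard error of 0.43 (edgeR adjusted p = 0.00142). The 95% interval of that change ran from -3.27 to -1.32 and overlapped the intervals of C3, C1R, C1S, SERPING1 and CFB. Another annotated gene on the same strand shares 1562 exon bases with CFI and was not analysed here.

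The 3 membrane regulators had smaller differences. CD46, a cofactor with which factor I cuts C3b and C4b on the cell's own surface (chromosome 1, 207752037 to 207795513, plus strand), had 5062, 4948 and 4105 counts in POGK libraries and 5419, 5912 and 6762 in control libraries. Its CPM were 141.5, 136.8 and 138.5 in POGK cells and 218.1, 188.7 and 227.8 in control cells. All control libraries were higher than all POGK libraries. CD46 had a log2 fold change of -0.61 (standard error 0.0818; edgeR adjusted p = 0.000226). It shares 797 exon bases with the opposite-strand gene MIR29B2CHG, which had 234 counts over the 6 libraries.

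CD55, or decay-accelerating factor, takes apart the enzymes that cut C3 and is held in the membrane by a GPI anchor (chromosome 1, 207321519 to 207386804, plus strand). Its CPM were 134.2, 137.6 and 129.5 in POGK cells and 176.8, 187.6 and 147.1 in control cells. Control replicate 3 lay nearest to the POGK libraries. CD55 had a log2 fold change of -0.35 (standard error 0.0935; edgeR adjusted p = 0.00916), and with library size alone it was -0.15 (edgeR adjusted p = 0.165) and the groups overlapped.

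CD59, or protectin, is also GPI-anchored and blocks assembly of the membrane attack complex, the pore at the end of the cascade (chromosome 11, 33703010 to 33736479, minus strand). Its raw counts were close in both groups, at 14660, 14608 and 11731 in POGK libraries and 13617, 13310 and 14883 in control libraries. On the CPM scale they were 409.8, 403.8 and 395.8 in POGK cells and 548.1, 424.8 and 501.4 in control cells. Its log2 fold change was -0.29, with a 95% interval from -0.51 to -0.07 (edgeR adjusted p = 0.0276). With library size alone it was -0.09 (edgeR adjusted p = 0.337), on a scale where the median of all genes stood at 0.19 and where 62.6% of called genes were higher, against 49.6% with TMM. Without any 1 POGK replicate or without control replicate 3 the edgeR adjusted p of CD59 lay between 0.0759 and 0.103. In the authors' deposited table CD59 had a log2 fold change of -0.28 and an adjusted p of 0.0704, and the other 8 genes had adjusted p-values of 0.0237 or less there. Another annotated gene on the same strand shares 629 exon bases with CD59 and was not analysed here.

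**Figure D2:**
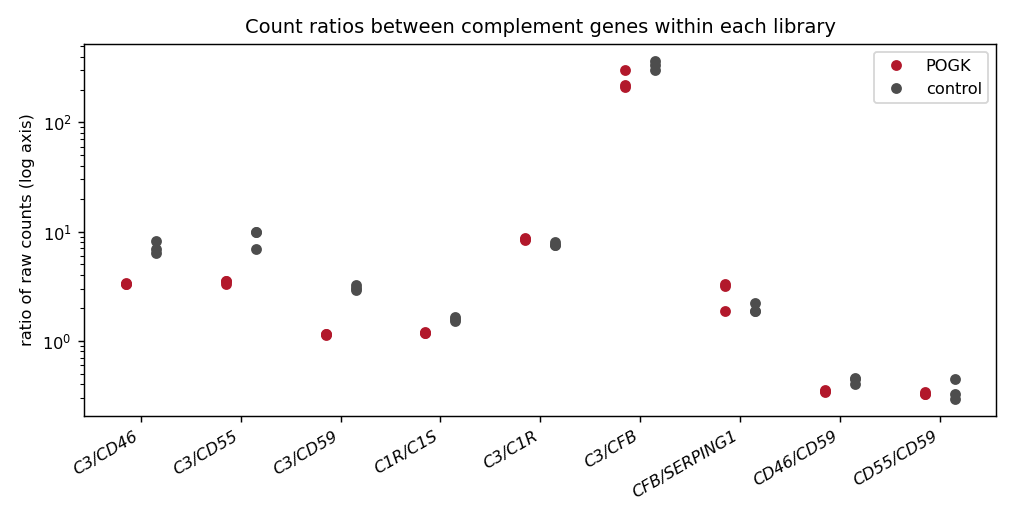
Ratios of raw counts between pairs of complement genes within each library, on a log axis, with POGK libraries left of control libraries in each pair. The C3 to CD59 ratio was 1.13 to 1.16 in POGK libraries and 2.91 to 3.23 in control libraries, whereas the CD55 to CD59 ratio overlapped.

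The ratio of C3 to the genes of the membrane regulators was separate between the groups. There were 3.33, 3.35 and 3.32 C3 counts per CD46 count in POGK libraries and 8.11, 6.88 and 6.40 in control libraries. Per CD55 count there were 3.51, 3.33 and 3.55 in POGK libraries and 10.01, 6.92 and 9.92 in control libraries, and per CD59 count 1.15, 1.13 and 1.16 in POGK libraries and 3.23, 3.06 and 2.91 in control libraries. These ratios compare reads, not molecules, since the genes differ in length. The changes on the log2 scale were -1.09, -1.35 and -1.42, and each was separate between groups (2-sided exact permutation p = 0.1, the smallest possible, or 0.15 adjusted over the 9 ratios). Among the regulators, the CD46 to CD59 ratio averaged 0.345 ± 0.00563 in POGK libraries and 0.432 ± 0.0301 in control libraries without overlap (SD, n = 3 each). The CD55 to CD59 ratio averaged 0.332 ± 0.00774 in POGK libraries and 0.353 ± 0.0785 in control libraries and overlapped.

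**Figure D3:**
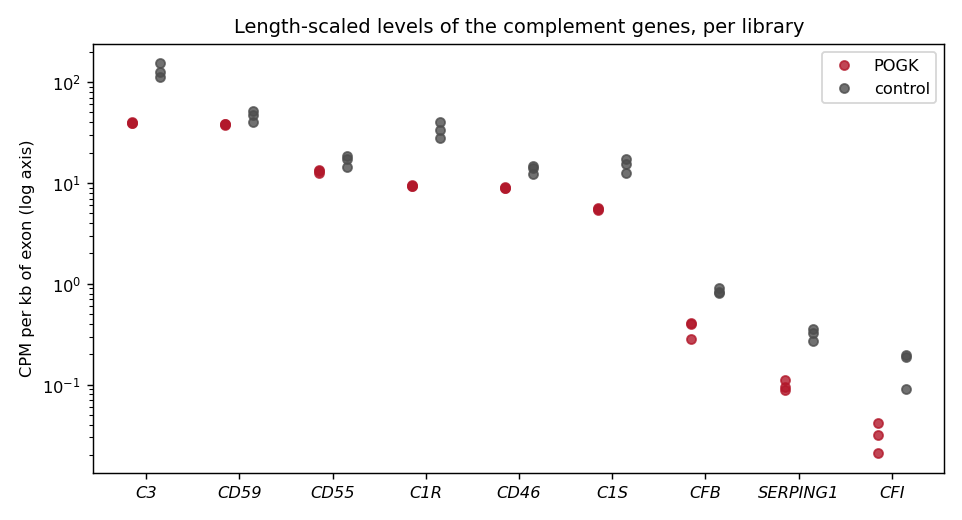
CPM per kb of annotated exon for each gene and library on a log axis, with POGK libraries left of control libraries and genes ordered by their level in POGK cells. C3 and CD59 stood at 40.0 and 38.2 CPM per kb in POGK cells, and at 130 and 46.6 CPM per kb in control cells.

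Levels of different genes were compared as CPM per kb of annotated exon. In POGK cells the order was C3 (40.0 ± 0.592), CD59 (38.2 ± 0.666), CD55 (13.1 ± 0.398), C1R (9.33 ± 0.125), CD46 (8.96 ± 0.154) and C1S (5.51 ± 0.115), and no neighbours in this order overlapped between libraries (SD, n = 3). In control cells the order was C3 (130 ± 20.7), CD59 (46.6 ± 5.89), C1R (33.96 ± 6.31), CD55 (16.6 ± 2.05), C1S (15.1 ± 2.49) and CD46 (13.6 ± 1.31). There, CD59 overlapped with C1R, and CD55, C1S and CD46 overlapped with their neighbours. CFB, SERPING1 and CFI came last in both groups, at 0.366, 0.0988 and 0.0315 CPM per kb in POGK cells and 0.848, 0.316 and 0.159 CPM per kb in control cells. Exon lengths count every annotated transcript, from 5312 bases for CFB to 15505 for CD46, so the level of a gene with many long annotated exons is understated.

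The control libraries spread more widely than the POGK libraries for 8 of the 9 genes in CPM, CFB being the other. Control replicate 2 was the lowest control for 8 of the 9 genes and the highest for CD55. Without control replicate 2 the log2 fold change was -1.80 for C3, -1.98 for C1R, -1.57 for C1S and -0.27 for CD55, so its absence moved the fold of none of the 9 genes by over 1.5 times. With limma and a separate weight for each group, which allows unequal spread, all 9 genes were still called lower.

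**Figure D4:**
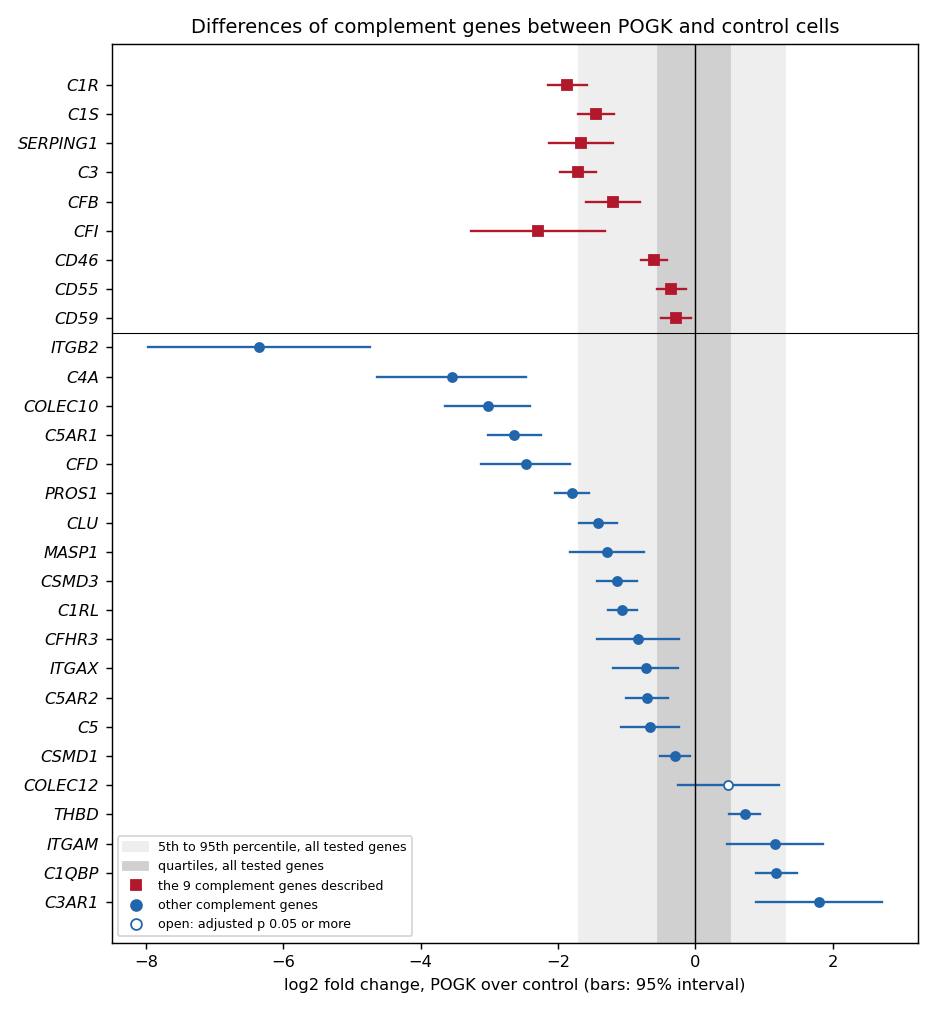
Log2 fold changes of POGK over control with 95% intervals for the 9 complement genes (squares) and other tested complement genes (circles), over bands for the quartiles and the 5th to 95th percentiles of all tested genes. Most of the circles lie below 0, and the value of ITGB2 rests on 1 count in the POGK libraries and is no measure of its fold.

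The rest of the pathway was followed in a list of 56 other complement genes, of which 28 were in the table and 21 were tested. Of these, 16 were lower, 4 were higher and COLEC12 did not pass. Their median log2 fold change was -1.06. ITGB2 and C4A, counted as lower, passed the filter on low counts only through control libraries, so a call of higher was hardly open to them. Among the untested genes, all with few counts, CFP, C8G and VTN were separate and higher in CPM, and C4B and CR2 separate and lower. The shares of all tested genes that were lower and higher, 33.3% and 32.7%, apply here too. Of the 12 with the highest mean CPM, all but 1 are described by role.

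Among fluid-phase proteins, CLU, the gene of clusterin, a chaperone that also binds the terminal complex, averaged 109 ± 5.25 CPM in POGK cells and 291 ± 52.2 CPM in control cells. PROS1, the gene of protein S, which circulates partly bound to C4b-binding protein, averaged 49.7 ± 0.771 CPM in POGK cells and 173 ± 27 CPM in control cells (SD, n = 3 each). Both were lower, by 2.67-fold and 3.48-fold, at edgeR adjusted p-values of at most 2.27e-05. Outside the fluid phase, CSMD3, a large membrane protein with complement-type domains, was 2.21-fold lower. CSMD1, of the same family, had a log2 fold change of -0.30 (edgeR adjusted p = 0.02) that did not pass with library size alone (-0.11) or without any 1 POGK replicate.

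Among proteases and recognition proteins, CFD, the gene of factor D, which activates factor B, had 24, 15 and 21 counts in POGK libraries and 110, 82 and 88 in control libraries. COLEC10, a collectin of the lectin pathway, had 11, 15 and 21 counts in POGK libraries and 110, 103 and 112 in control libraries. Both were lower, by 5.56-fold and 8.12-fold. C1RL, given above, was 2.09-fold lower.

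Receptors of the C5a fragment were lower as well. C5AR1 had 26, 34 and 22 counts in POGK libraries and 123, 153 and 157 in control libraries, and was 6.23-fold lower (edgeR adjusted p = 6.68e-06). C5AR2, its relative, was 1.63-fold lower, with 5.99 ± 0.468 CPM in POGK cells and 9.79 ± 1.4 CPM in control cells (SD, n = 3 each). Among the genes that were higher, C1QBP, which binds C1q and is also a mitochondrial matrix protein, averaged 254 ± 1.88 CPM in POGK cells and 112 ± 24.2 CPM in control cells (edgeR adjusted p = 8.6e-05). THBD, the gene of thrombomodulin, which restrains coagulation and complement on surfaces, was 1.65-fold higher.

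Of the genes outside that rule, a few were chosen after their values were seen. The remaining 2 higher genes were C3AR1, the receptor of the C3a fragment, and ITGAM, a chain of complement receptor 3. C3AR1 had 106, 92 and 87 counts in POGK libraries and 13, 47 and 10 in control libraries, with control replicate 2 apart from the others. Its log2 fold change was 1.80, or 2.72 without control replicate 2. ITGAM had 34, 35 and 17 counts in POGK libraries and 11, 11 and 10 in control libraries, and its call was lost with limma and group weights (log2 fold change 1.10, adjusted p = 0.0954). ITGB2, the chain it pairs with, had 0, 1 and 0 counts in POGK libraries and 30, 21 and 45 in control libraries. The control over POGK ratio of ITGB2 was 114, and its 95% exact interval, which takes in counting error alone, spanned 19.9 to 4530. C4A, the gene of a C1s substrate, had 3, 1 and 2 counts in POGK libraries and 18, 16 and 29 in control libraries, and is uncertain because its copy C4B is nearly identical.

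Genes of the interferon, NF-kB, interleukin and C/EBP signalling that is known to act on complement transcription formed a list of 32, all tested. The list holds inhibitors of these pathways (NFKBIA, TNFAIP3, SOCS1 and SOCS3) as well as activators. Of these, 18 were lower and 7 higher (12 and 7 with library size alone), and the median change was -0.29 on the log2 scale. Over all tested genes 33.3% were lower and 32.7% higher, and 24.7% were lower with library size alone. The 4 with the largest called differences were all lower. TNFAIP3 and NFKBIA, feedback inhibitors that NF-kB itself induces, averaged 160 ± 6.31 and 164 ± 4.17 CPM in POGK cells and 569 ± 217 and 513 ± 164 CPM in control cells. CEBPB, the gene of a transcription factor of the acute-phase response, averaged 104 ± 7.99 CPM in POGK cells and 365 ± 87.1 CPM in control cells. IRF1, an interferon-induced transcription factor, averaged 30.6 ± 1.27 CPM in POGK cells and 86.9 ± 30.1 CPM in control cells (SD, n = 3 each). Their control levels were uneven, and their edgeR adjusted p-values were at most 0.000617. Among receptors chosen after their values were seen, IFNGR1 of interferon gamma was 1.66-fold lower and IL6ST, the shared receptor chain gp130, was 1.40-fold higher.

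Acute-phase genes, which the liver raises together with C3 and CFB in inflammation, were followed in a list of 19, with 12 tested. Of these, 8 were lower, beside 33.3% of all tested genes, and the median change was -0.94 on the log2 scale. ORM2 and LBP, counted as lower, passed the filter on low counts only through control libraries. SERPINA3 was the 1 higher gene, a call lost in several alternatives. SAA1, the gene of serum amyloid A, averaged 161 ± 7.7 CPM in POGK cells and 415 ± 81.3 CPM in control cells. CP, the gene of ceruloplasmin, averaged 2.25 ± 0.0433 CPM in POGK cells and 6.88 ± 0.885 CPM in control cells. ORM1 and ORM2, the genes of orosomucoid, averaged 1.57 ± 0.0687 and 0.125 ± 0.0652 CPM in POGK cells and 15.3 ± 2.97 and 3.70 ± 0.735 CPM in control cells (SD, n = 3 each). The edgeR adjusted p-values of these 4 were at most 3.78e-05. SAA1 and SAA2, and ORM1 and ORM2, are close copies, so single members are uncertain.

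CD55 and CD59 need GPI anchors to stay in the membrane, and 26 of 27 listed genes of anchor synthesis were tested. Of these, 10 were lower and 7 higher (median log2 fold change -0.12), but with library size alone 5 were lower and 11 higher, and without POGK replicate 3 there were 6 lower and 3 higher. Without POGK replicate 1 the counts were 6 lower and 4 higher, and without POGK replicate 2 they were 7 and 3. With all libraries and TMM, the counts lie near the shares over all tested genes, which were 33.3% lower and 32.7% higher. With library size alone, 3925 of all 15889 genes were lower and 6575 higher. Without 1 POGK library, 28.2% to 28.8% of all tested genes were lower. In those settings 4400 to 4482 of 16200 to 16310 genes were higher, a larger share than the 3 or 4 of 26 anchor genes. PIGW, an acyltransferase of the pathway, had 1109, 1226 and 980 counts in POGK libraries and 108, 340 and 139 in control libraries, and was 4.88-fold higher. PIGM, a mannosyltransferase, was 1.80-fold higher. PIGT, a subunit of the transamidase that attaches the anchor, averaged 110 ± 1.38 CPM in POGK cells and 233 ± 25.1 CPM in control cells (SD, n = 3 each), and PGAP2, a remodelling factor, was 1.73-fold lower. The edgeR adjusted p-values of these 4 were at most 0.000845.

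Markers of cells that make or carry complement in the body were measured in the same libraries. Of 8 hepatocyte markers, only APOA1 and TF were in the table, and their summed level was 0.249 to 0.304 CPM in POGK libraries and 0.242 to 0.505 CPM in control libraries, near 0 in both groups. Of 9 leukocyte markers, 5 were in the table, with a summed level of 4.08 to 5.67 CPM in POGK libraries and 2.53 to 3.29 CPM in control libraries, and FCER1G was at 0 in control replicate 2. ITGAM, counted there, is also among the other complement genes. The hepatocyte marker ALB had no row in the count table. Of 6 endothelial markers, 5 were in the table, with a summed level of 8.32 to 8.81 CPM in POGK libraries and 7.73 to 11.6 CPM in control libraries. The sums hide differences in both directions. Of 4 leukocyte markers tested, 3 were higher (PTPRC by 3.04-fold) and CD14 was 1.98-fold lower. CSF1R, 1 of the higher genes, overlapped between groups (edgeR adjusted p = 0.0468). Of 4 endothelial markers tested, ROBO4 was 3.59-fold higher and 2 were lower (VWF by 3.87-fold). ROBO4 had 36, 36 and 22 counts in POGK libraries and 1, 17 and 4 in control libraries. VWF had 6, 8 and 10 in POGK libraries and 19, 25 and 36 in control libraries. Over all tested genes 32.7% were higher and 33.3% lower. The part of these markers in the differences above was not tested.

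CFI, the gene with the largest log2 fold change of the 9, was compared with 11935 protein-coding genes of at least 1 CPM by the distance between their log2 CPM over the 6 libraries, each centred on its mean. The nearest were TMEM255A, LMOD1, PDGFRL, EPHA6 and CPA6, at distances from 0.37 to 0.435, and their log2 fold changes lay between -2.1 and -1.62. Before the logarithm 0.1 CPM was added to each value. This shrinks the profile of CFI, which stood at 0.11 to 0.22 CPM in POGK libraries. CFI also rests on few counts, so this likeness is a description of these libraries.

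**Figure D5:**
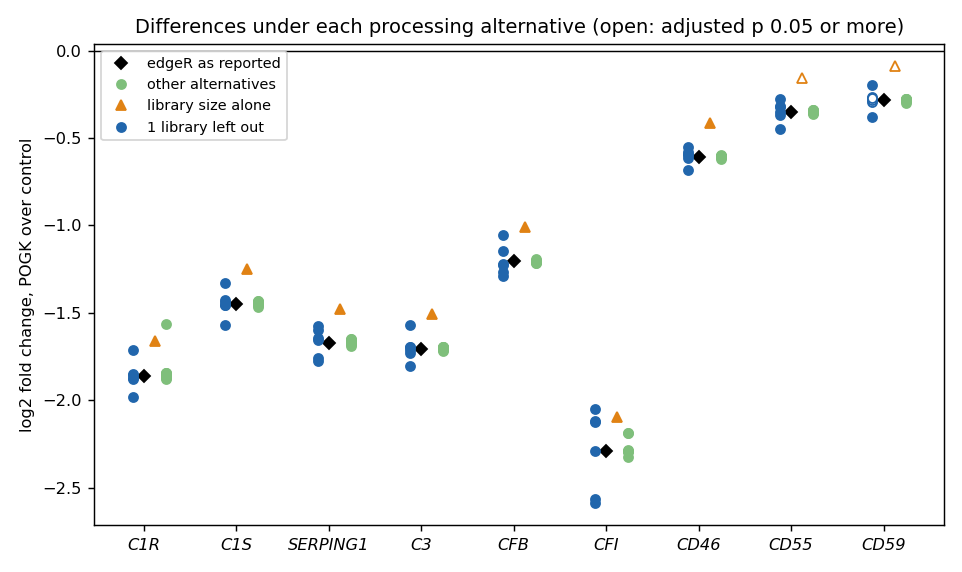
Log2 fold changes of POGK over control for the 9 genes as reported (diamonds), with library size alone (triangles), with 1 library left out (left circles) and with the other alternatives (right circles), where open symbols have an adjusted p of 0.05 or more. Every value lies below 0, and only CD55 and CD59 have open symbols.

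The share of all genes called lower changed with the alternative. It was 28.2% with DESeq2, 33% with limma-voom, 31% with limma and group weights, 33.2% with DESeq2-style size factors and 32.1% with the replicate block. It was 29.9% with no filter, 35.4% with a filter of 1 CPM and 24.7% with library size alone. Leaving out a POGK library gave 28.2% to 28.8%, and leaving out a control library gave 31% to 34.3%. All 9 complement genes were lower in the first 5 of these and with no filter, 8 with the 1 CPM filter and 7 with library size alone.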

How the data were processed

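RNA sequencing had been done by the submitters on 6 libraries, 3 of POGK cells and 3 of control cells, from total RNA depleted of ribosomal RNA and aligned to hg38, per the labels' protocols. The tools named in the submitters' processing notes are featureCounts, STAR, Trimmomatic, deepTools and SAMtools, with versions, annotation and strand setting not given in the sources used here. Whether reads of genes that overlap on opposite strands were separated is therefore unknown. Per the file headers the authors deposited raw counts per Ensembl gene. They also deposited a signal column per library (the count divided by 1 size factor) and, for POGK over control, a log2 fold change, a test score and p-values. These columns serve here only in sentences that name the authors' deposited table.

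The counts were tested with edgeR 4.0.16 in R 4.3.3 (quasi-likelihood test, robust, TMM scaling, default filter, Benjamini-Hochberg adjustment over 15889 genes, threshold 0.05). CPM used TMM-scaled library sizes. Positions and merged exon lengths came from GENCODE 44 (hg38), and start regions from RefSeq. Scripts were tested on simulated counts. Replicates differed by more than sampling noise and were kept apart, with a chi-square per gene of 1.36 to 2.62 for pairs in the POGK group and of 22.5 to 49.7 for control pairs. Alternatives were DESeq2 1.42.0, limma 3.58.1 with and without group weights, other scalings and filters, a replicate block and leaving out each library. The genes named outside the 9 were, of the other complement genes, the 12 with the highest mean CPM, and of the signalling, acute-phase and anchor lists the 4 with the largest called difference, all with a mean of at least 1 CPM. Of these, 1 other complement gene is not reported here. The members and lists were chosen with earlier results of these data known.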

Additional observations from a re-analysis of the deposited data

How the results depend on the processing

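The number of complement genes lower in POGK cells was 9 with DESeq2, both limma fits, DESeq2-style size factors, no filter, the replicate block and the overlapping genes added. It was 7 with library size alone, and 8 with a filter of 1 CPM in 3 libraries, which left CFI untested. Leaving out 1 library gave 8 or 9, and no complement gene was higher in any of these alternatives. Other complement genes gave 13 to 19 lower and 3 to 6 higher over all alternatives, in which 16 to 28 of them were tested. With the 1 CPM filter 13 of 16 were lower, and with DESeq2 18 of 28. Of all genes tested, 24.7% to 35.4% were lower over the alternatives. All genes called higher ran from 4400 of 16200 without POGK replicate 2 to 6575 of 15889 with library size alone. The labels do not say whether the replicate numbers pair the libraries. Deviations of same-numbered libraries correlated at 0.0867, 0.041 and 0.00275, and those of differently numbered libraries at -0.0889 to 0.0458. With 3 libraries per group these values cannot decide whether there is a pairing. With the replicate number as a block 10239 genes were called in place of 10487. The CD55 to CD59 ratio, with a change of -0.06 on the log2 scale, reversed to 0.11 in the absence of control replicate 2, and with 1 library left out it reached -0.19 at the lowest. Depth limited CFI and SERPING1 most, at 17 and 72 counts over the POGK libraries.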

Other observations

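Some cytokine signalling genes, chosen after their values were seen, are given as values. IL6, the gene of interleukin 6, had 825, 873 and 693 counts in POGK libraries and 225, 763 and 181 in control libraries. Its log2 fold change of 0.83 did not pass (edgeR adjusted p = 0.114), but it was 1.65 without control replicate 2 (edgeR adjusted p = 3.05e-05), and 1.07 with limma-voom (adjusted p = 0.0297). SOCS3, the gene of a suppressor that IL6 signalling induces, was 2.06-fold higher, at 53.3 ± 1.64 CPM in POGK cells and 25.8 ± 2.84 CPM in control cells (SD, n = 3 each), whereas its relative SOCS1 was 2.11-fold lower.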
